A study of Mus musculus with 96 samples.

Results

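The genes described here encode 8 carriers of sulfate, dicarboxylates and monocarboxylates: Slc13a1, Slc26a1, Slc13a2, Slc13a3, Slc5a12, Slc5a8, Slc16a1 and Slc16a7. They were chosen by symbol from a mouse table of 54532 genes, and all 8 were found, each with 1 Ensembl identifier. Transcripts were measured in kidneys of male C57BL/6 mice aged 6 to 8 weeks, on ordinary chow and water, with no treatment in any group. Glomeruli and 14 tubule segments were microdissected and sequenced after amplification of very small RNA inputs, to chart where genes are expressed along the nephron. PTS1 is the initial convoluted part of the proximal tubule, PTS2 the straight part within the medullary rays and PTS3 the terminal stretch, which lies in the outer stripe. Thin descending limbs came from short loops (DTL1) and from long loops, as DTL2 in the outer and DTL3 in the inner medulla, and ATL is the thin ascending limb. MTAL and CTAL are the medullary and cortical thick ascending limb, DCT is the distal convoluted tubule and CNT the connecting tubule. CCD, OMCD and IMCD are the cortical, outer medullary and inner medullary collecting duct. There were 93 samples (6 were glomeruli, 87 tubules) of 53 mice, with n = 5 in CCD, CTAL and PTS2, n = 4 in OMCD and ATL, and n = 3 in the remaining 10 groups. Pieces of 1 mouse were averaged first, so n counts mice. Levels are TPM, transcript abundance per length scaled to the same total in each sample, given as mean ± SD over mice.

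These carriers clear small organic and sulfur anions from the filtrate, and move them between the tubule cell and blood. Filtered sulfate enters proximal cells through the sodium-coupled carrier encoded by Slc13a1 at the brush border and leaves through the anion exchanger encoded by Slc26a1 at the basolateral side. Citrate and dicarboxylates enter from the urine through the carrier encoded by Slc13a2 and from the blood through that encoded by Slc13a3, and the dicarboxylate gradient drives organic anion exchange. Lactate, pyruvate and ketone bodies are taken up from the urine by the sodium-coupled carriers encoded by Slc5a12, of low affinity, and Slc5a8, of high affinity. Slc16a1 and Slc16a7 encode proton-coupled monocarboxylate carriers, the latter of higher affinity, which need a partner glycoprotein such as basigin (Bsg) or embigin (Emb) to reach the membrane.

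Of 21 segment markers, 21 had their highest mean in a group where they are known, though many are known in several groups. No marker was highest in PTS3, DTL2, MTAL or CNT, so the check does not set those segments apart. The libraries differed in their low-level background. Between 11474 (a PTS2 mouse) and 29454 (a DTL1 mouse) genes reached a TPM of 1. Odorant and vomeronasal receptor genes at that level numbered 753 to 925 in DTL1, 403 to 898 in glomerulus, 504 to 556 in DTL3, 274 to 389 in DTL2, 76 to 253 in OMCD and 20, 33, 601 and 703 in ATL (the last 2 in mice 4 and 6), and at most 31 in any mouse of the other groups. Calls between low levels that involve those 6 groups stand on this background. Its part in them was not tested, except in ATL by a fit without ATL mice 4 and 6. A fit without glomerulus and DTL1 leaves the differences between other groups as they are, so it does not test the background in them. The median gene was lower in PTS3 than in DTL1 by a log2 difference of -1.33, and by -0.71 against DTL2. It was higher in DTL1 than in DTL2 by 0.54 and higher in PTS1 than in PTS2 by 0.15. TPM keep no record of read depth, so no interval for counting error can be given.

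Of the 8 genes, 7 had their highest mean in the proximal tubule and 1, Slc16a7, in the DCT. Slc13a1, Slc26a1, Slc5a12 and Slc16a1 had it in PTS1, and Slc13a2, Slc13a3 and Slc5a8 in PTS2. All 8 passed the low-value filter and differed among the 15 groups by limma's F-test, beside 93.9% of all 33793 genes tested, so that count does not set them apart. The adjusted p ran from 4.00e-37 for Slc16a7 to 6.25e-19 for Slc16a1. In bulk tissue pieces, fewer cells of a type and less RNA per cell cannot be told apart.

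**Figure D1:**
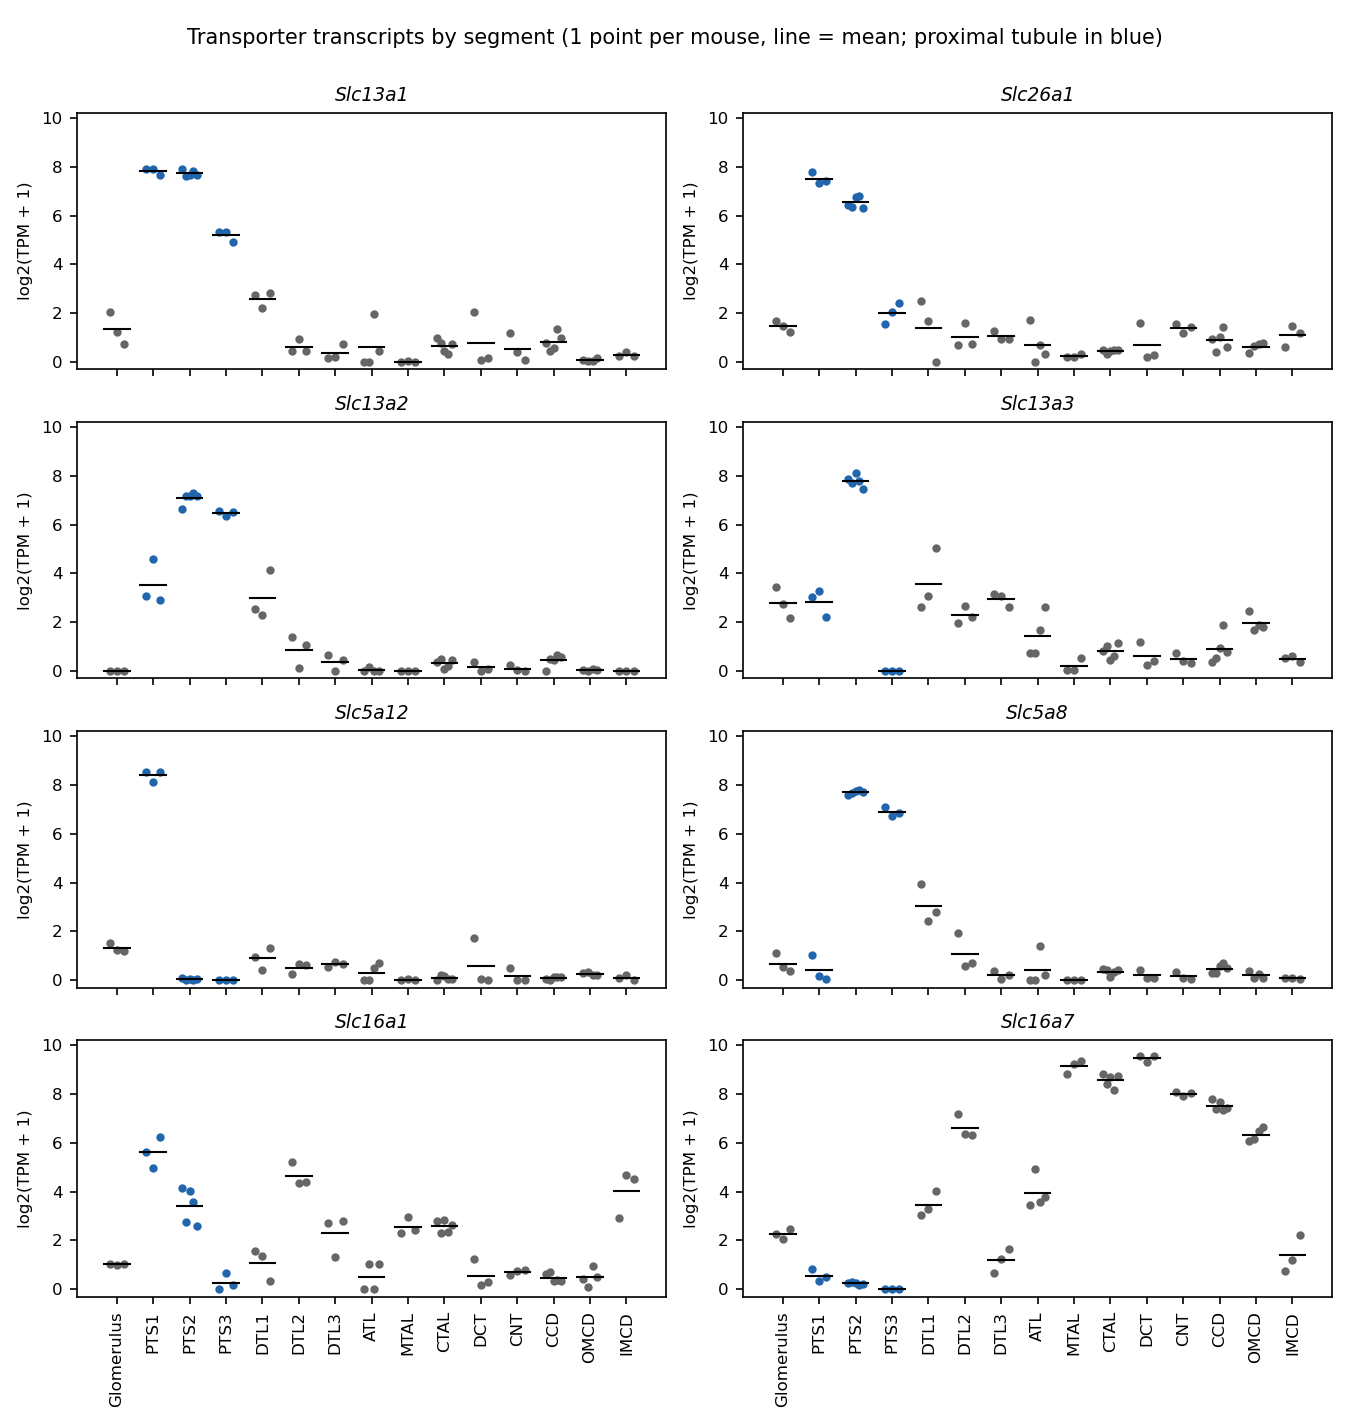
Log2(TPM + 1) of the 8 transporter genes (panels) in glomerulus and 14 tubule segments (x axis), with 1 point per mouse, a line at the group mean and the proximal segments in blue. Slc5a12 stands high in PTS1 and Slc13a3 in PTS2, whereas Slc16a7 is near 0 in PTS1 to PTS3 and between 287.9 and 752.1 TPM in each mouse of MTAL, CTAL and DCT.

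A gene was called different between groups when its adjusted p was under 0.05 and the difference in log2(TPM + 1) was at least 1. Between PTS1 and PTS2, 5 of the 8 differed, beside 9.57% of all genes. Slc5a12 and Slc16a1 were higher in PTS1 (4.46% of all genes), and Slc13a2, Slc13a3 and Slc5a8 were higher in PTS2 (5.1%). Between PTS2 and PTS3, 4 of 8 differed (4.7% of all genes), and Slc13a1, Slc26a1, Slc13a3 and Slc16a1 were each higher in PTS2 (3.94%). None (0) of the 8 was called higher in PTS3 by limma (0.755% of all genes), and 0 were higher there at an unadjusted p under 0.05. The ends of the proximal tubule, PTS1 and PTS3, differed in 7 of 8 (10.1% of all genes), with 5 higher in PTS1 (6.14%) and 2, Slc13a2 and Slc5a8, higher in PTS3 (3.97%). The median difference over the 8 genes was 0.20 from PTS1 to PTS2, 1.68 from PTS2 to PTS3 and 2.74 from PTS1 to PTS3, against 0.15, 0 and 0.18 over all genes, each as the earlier segment minus the later. These comparisons share the mice of a segment, so they are not independent of each other.

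The sulfate carriers Slc13a1 and Slc26a1 were the pair present together in PTS1 and PTS2, and both were lower in PTS3, Slc26a1 at 3.75 TPM. Slc13a1 (ENSMUSG00000029700), the apical entry step, was at 242, 242 and 202 TPM in the 3 PTS1 mice. Its PTS2 values were 238, 196, 209, 226 and 204 TPM, which overlap those of PTS1. The 3 PTS3 mice had 40.1, 38.9 and 29.8 TPM, all below every PTS2 mouse. The mean of Slc13a1 was 228 ± 23.3 TPM in PTS1 (n = 3), 214 ± 17.1 TPM in PTS2 (n = 5) and 36.3 ± 5.60 TPM in PTS3 (n = 3). PTS1 and PTS2 differed by 0.10 (SE 0.33, adjusted p = 0.921), which is within the spread of the mice. PTS2 exceeded PTS3 by a log2 difference of 2.55 (SE 0.33, adjusted p = 1.31e-07). Beyond the proximal tubule, Slc13a1 was at 4.26 to 6.16 TPM in DTL1 and its means were at most 1.87 TPM elsewhere.

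Slc26a1 (ENSMUSG00000046959), the basolateral exit step for sulfate, which also carries oxalate and bicarbonate, was at 216, 161 and 171 TPM in PTS1. In PTS2 it was at 85.9, 81.1, 109, 112 and 78.6 TPM, so every PTS1 mouse lay above every PTS2 mouse. PTS3 had 3.73, 3.10 and 4.43 TPM. Its means were 183 ± 29.3 TPM, 93.3 ± 15.9 TPM and 3.75 ± 0.668 TPM along the tubule (n = 3, 5 and 3). The PTS1 to PTS2 difference was 0.97 (SE 0.34, adjusted p = 0.0409), which missed the size threshold of 1. It passed with median ratio rescaling (1.15, adjusted p = 0.00593), with quantile normalization (1.07, adjusted p = 0.00189), without PTS2 mouse 3 (1.03, adjusted p = 0.0439) and without PTS2 mouse 4 (1.04, adjusted p = 0.0405). Over all alternatives it ran from 0.80 to 1.15, with an adjusted p between 1.09e-06 and 0.317. The drop from PTS2 to PTS3 was 4.52 (SE 0.34, adjusted p = 6.65e-14). Per length, the sum of the sulfate carriers was 411 ± 43.3 TPM in PTS1, 308 ± 26.8 TPM in PTS2 and 40.0 ± 5.06 TPM in PTS3. Slc13a1 made up 52.8% to 60.0% of that sum in PTS1 mice, 65.8% to 73.5% in PTS2 mice and 87.1% to 92.6% in PTS3 mice.

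**Figure D2:**
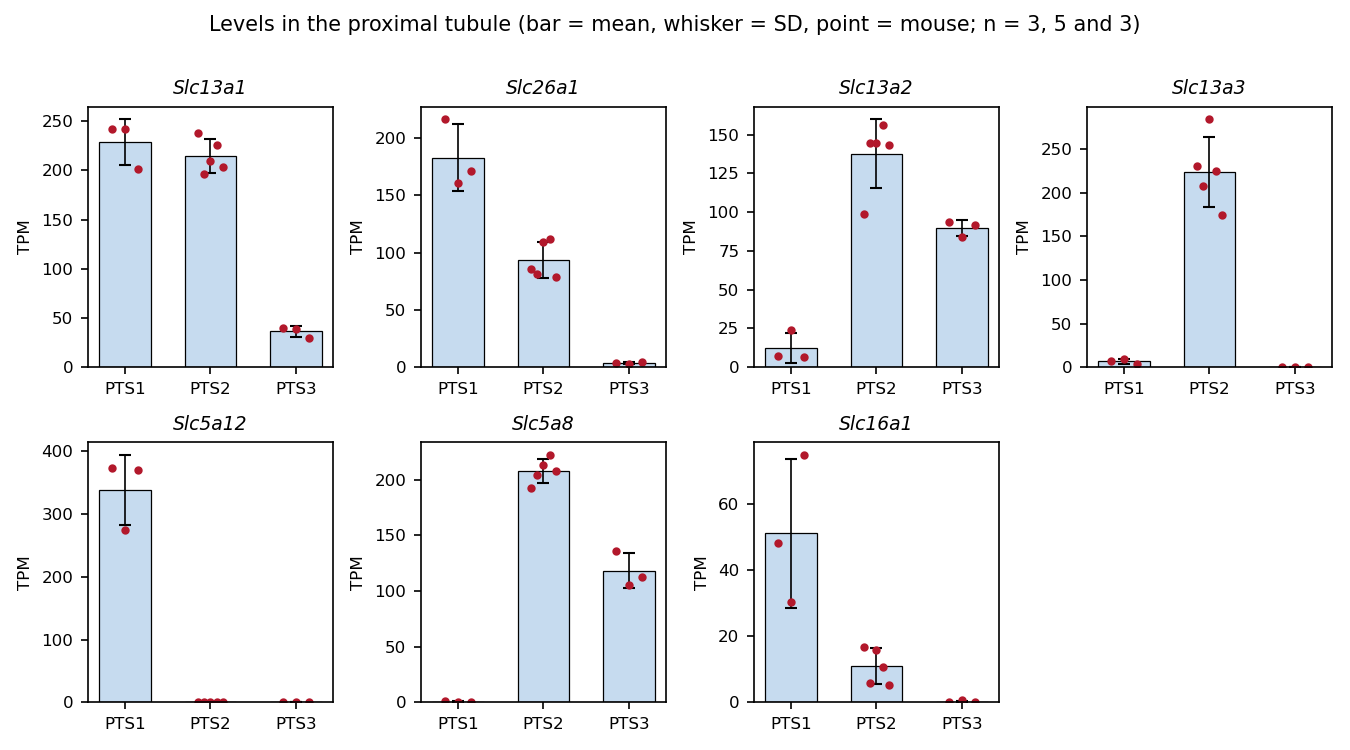
TPM of the 7 genes with their highest mean in the proximal tubule (panels), in PTS1, PTS2 and PTS3 (x axis); bars are means over mice, whiskers SD, points mice (n = 3, 5 and 3), and each panel has its own y axis from 0. Slc5a12 occupies PTS1 and Slc5a8 occupies PTS2 and PTS3, and Slc13a3 has a bar in PTS2 at 224 TPM with 0 listed in PTS3.

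Both dicarboxylate carriers were higher in PTS2 than in PTS1. They parted in PTS3, where Slc13a2 was also above PTS1 and Slc13a3 was listed at 0. Slc13a2 (ENSMUSG00000001095), the luminal carrier that takes up citrate, was at 7.46, 23.8 and 6.52 TPM in the PTS1 mice. In PTS2 it was at 99.0, 145, 145, 156 and 143 TPM, and in PTS3 at 93.6, 83.8 and 91.8 TPM. Every PTS1 mouse lay below all mice of the straight part, and the lowest PTS2 mouse lay just above the highest PTS3 mouse. The mean of Slc13a2 was 12.6 ± 9.72 TPM in PTS1 (n = 3), 138 ± 22.2 TPM in PTS2 (n = 5) and 89.7 ± 5.21 TPM in PTS3 (n = 3). PTS1 minus PTS2 was -3.56 (SE 0.29, adjusted p = 5.58e-14) and PTS1 minus PTS3 was -2.96 (SE 0.32, adjusted p = 3.59e-10). The PTS2 to PTS3 difference of 0.61 (SE 0.29, adjusted p = 0.219) did not pass. PTS1 mouse 2, with the highest Slc13a2, also held 48.3 TPM of Slc22a6, a transcript of PTS2, against 35.1 and 9.42 TPM in mice 1 and 3. Other transcripts of the straight part were highest in mouse 1: Kap (742, 15.2 and 3.95 TPM in mice 1 to 3), Napsa (27.8, 11.9 and 6 TPM) and Slc7a13 (13.8, 0.125 and 0.05 TPM). The part of such transcripts in the PTS1 values was not tested.

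Slc13a3 (ENSMUSG00000018459), the high-affinity carrier that takes dicarboxylates up from the blood side, was concentrated in PTS2. It was at 230, 207, 284, 224 and 174 TPM in the PTS2 mice and at 7.15, 8.91 and 3.65 TPM in PTS1. In PTS3 it was listed at 0 in all 6 pieces, as were 32383 of the 54532 genes of the table, which include genes not expressed in these groups. Of 3794 genes at 10 TPM or more in every piece of the other groups, 0 were so listed. Next came DTL1, with 5.14, 7.48 and 31.7 TPM, then DTL3 (6.87 ± 1.45 TPM) and glomerulus (6.70 ± 3.48 TPM). By the intersection-union test, which asks that a group exceed each other group, Slc13a3 was higher in PTS2 than everywhere else. The smallest margin was 4.21 over DTL1 (SE 0.38, adjusted p = 4.19e-11). In this test 2 of the 8 genes, Slc13a3 and Slc5a12, were called for some group, beside 8.8% of all genes. In PTS2 alone 0.257% of genes were called. PTS1 minus PTS2 was -4.94 (SE 0.38, adjusted p = 8.62e-15), and PTS2 exceeded PTS3 with an adjusted p of 1.19e-20. For PTS1 minus PTS3 the difference was 2.84 (SE 0.42, adjusted p = 6.01e-07), and it moved between 1.18 and 5.95 with the pseudocount because PTS3 is at 0.

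Summed per length, Slc13a2 and Slc13a3 reached 19.2 ± 11.9 TPM in PTS1, 361 ± 44.7 TPM in PTS2 and 89.7 ± 5.21 TPM in PTS3. Slc13a3 made up 27.2% to 49.0% of the sum in PTS1, 54.9% to 69.9% in PTS2 and 0% in PTS3. Slc22a6, the basolateral organic anion exchanger that uses the dicarboxylate gradient, was itself at 981 ± 206 TPM in PTS2 against 30.9 ± 19.8 TPM in PTS1 and 1.45 ± 0.401 TPM in PTS3. Its relative Slc22a8 had its highest level in PTS1 (258 ± 53.0 TPM) and was at 56.4 ± 20.3 TPM in PTS2.

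The sodium-coupled monocarboxylate carriers Slc5a12 and Slc5a8 exchanged places between the convoluted and the straight part. Slc5a12 (ENSMUSG00000041644), the low-affinity carrier of lactate, was at 372, 274 and 369 TPM in PTS1. No PTS2 mouse exceeded 0.05 TPM, and all 6 PTS3 pieces were listed at 0. Slc5a12 transcript was thus concentrated in PTS1, at 338 ± 55.6 TPM (n = 3) against 0.024 ± 0.0227 TPM in PTS2 (n = 5). PTS1 exceeded PTS2 by 8.36 (SE 0.23, adjusted p = 2.22e-30) on the log2 scale with a pseudocount of 1, which understates so large a ratio. The nearest group was glomerulus, at 1.72 ± 0.404 TPM. The margin over it was 7.09 (SE 0.25, adjusted p = 8.83e-26), so Slc5a12 was higher in PTS1 than in every other group, as were 0.544% of all genes. DCT mouse 1 held 3.45 TPM of Slc5a12 against 0.02 and 0.015 TPM in the other DCT mice. The same mouse held 158 TPM of the phosphate carrier Slc34a1 and 36.9 TPM of the glucose carrier Slc5a2, proximal transcripts that were at most 3.10 and 0.605 TPM in the other DCT mice. Slc13a1 (3.93 TPM) and Slc26a1 (2.85 TPM) were also highest in that DCT mouse.

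Slc5a8 (ENSMUSG00000020062), the high-affinity carrier of lactate, pyruvate and nicotinate, had the opposite distribution. The PTS1 mice had 1.42, 0.135 and 0.04 TPM. PTS2 mice had 193, 204, 213, 223 and 208 TPM, and PTS3 mice 136, 106 and 113 TPM. The straight part therefore stood apart from PTS1 with no overlap, and PTS2 and PTS3 did not overlap either. Means were 0.532 ± 0.771 TPM in PTS1 (n = 3), 208 ± 11 TPM in PTS2 (n = 5) and 118 ± 15.8 TPM in PTS3 (n = 3). PTS1 minus PTS2 was -7.28 (SE 0.27, adjusted p = 1.77e-25) and PTS1 minus PTS3 was -6.47 (SE 0.31, adjusted p = 7.48e-22). The PTS2 to PTS3 difference of 0.82 (SE 0.27, adjusted p = 0.0384) was under the size threshold. It stayed under it in every alternative, between 0.46 and 0.92, with an adjusted p from 2.03e-05 to 0.623. The sum of Slc5a12 and Slc5a8 was 339 ± 56.0 TPM in PTS1, 208 ± 10.9 TPM in PTS2 and 118 ± 15.8 TPM in PTS3. Slc5a12 made up 99.6% to 99.99% of it in PTS1 mice and at most 0.0259% in PTS2 mice.

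Of these carriers, Slc13a2 and Slc5a8 had the most similar pattern over the 15 group means of log2(TPM + 1), with a Pearson r of 0.936, a description over groups that share libraries. Slc13a1 and Slc26a1 followed at 0.931, and Slc5a8 against Slc5a12 gave -0.15. The stretches before their annotated starts are shown because Slc13a2 and Slc5a8 moved together, with Slc26a1, present in PTS1 and PTS2 and low in PTS3, for contrast. Promoters of 5 of the 8 genes matched in the RefSeq table of GRCm38.p6. The 100 bases before the start are given 5′ to 3′ on the gene's strand, and capitals mark matches to the motifs searched.
Slc13a2 (chr11:78422235-78422334, minus strand): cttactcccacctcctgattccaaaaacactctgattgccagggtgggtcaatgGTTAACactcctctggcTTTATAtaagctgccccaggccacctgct
Slc5a8 (chr10:88885892-88885991, plus strand): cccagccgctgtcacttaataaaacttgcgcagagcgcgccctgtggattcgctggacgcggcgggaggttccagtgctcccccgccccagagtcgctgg
Slc26a1, downstream of its 2 starts (chr5:108674797-108674896, minus strand): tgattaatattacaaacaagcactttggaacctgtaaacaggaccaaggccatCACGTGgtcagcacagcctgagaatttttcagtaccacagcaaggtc

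Motifs were searched on both strands in the 250 bases before each start. GTTAAC and GTTAAT, which differ in the last base, were searched as short forms of the site bound by HNF1 factors. The E-box searched was CACGTG. The TATA box searched was TATAAA, shown in capitals as its reverse complement where it lies on the other strand. Slc13a2 held GTTAAC at 46 to 41 bases and TATAAA at 29 to 24 bases before the start. The Slc5a8 stretch held none of these letters. CACGTG lay 47 to 42 bases before the Slc26a1 start shown, and further out before Slc13a3 (154 to 149 bases) and Slc16a1 (200 to 195 bases). The upstream Slc26a1 start had TATAAA at 240 to 235 bases. No match overlapped another. Among 32851 promoters of that length, GTTAAC was found in 2.56%, GTTAAT in 6.43%, CACGTG in 6.02% and TATAAA in 12.4%, so each is a common word. GC content of the 250 bases was 76.4% for Slc16a1, 67.6% for Slc13a3, 58.8% for Slc5a8, 53.6% for Slc13a2 and 46.8% or 46% for Slc26a1, against a median of 52.4% over all promoters.

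Among the proton-coupled carriers, Slc16a1 (ENSMUSG00000032902), the widely expressed carrier of lactate and ketone bodies, declined along the proximal tubule and reappeared in DTL2 and IMCD. It was at 48.4, 30.3 and 75.0 TPM in PTS1 and at 16.9, 5.83, 15.9, 10.8 and 5.14 TPM in PTS2. PTS3 mice had 0, 0.625 and 0.12 TPM, so the 3 segments did not overlap. PTS1 exceeded PTS2 by 2.18 (SE 0.37, adjusted p = 9.38e-06) and PTS2 exceeded PTS3 by 3.16 (SE 0.37, adjusted p = 1.29e-08). The latter ranged from 1.53 to 5.45 with the pseudocount, as PTS3 lies near 0. In order of level, PTS1 (51.2 ± 22.5 TPM) was followed by DTL2 (25.5 ± 9.53 TPM), IMCD (18.0 ± 9.83 TPM) and PTS2 (10.9 ± 5.47 TPM). Neighbours in that order did not pass, with an adjusted p of 0.0613, 0.249 and 0.258. The thick limb came next, at 5.09 ± 1.62 TPM in MTAL and 5.06 ± 0.979 TPM in CTAL (n = 3 and 5). With median ratio rescaling or quantile normalization Slc16a1 passed as higher in PTS1 than in every other group, by 1.93 (adjusted p = 0.000834) and 1.81 (adjusted p = 0.00146).

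**Figure D3:**
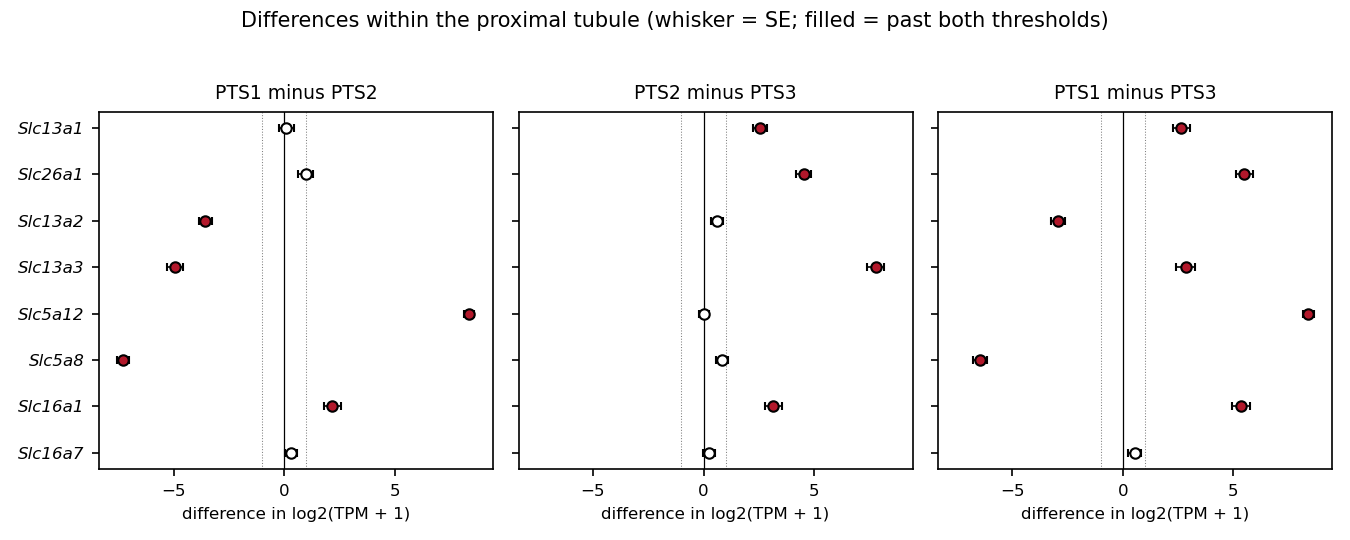
Difference in log2(TPM + 1) between proximal segments (x axis) for each of the 8 genes (rows), with SE whiskers; filled points passed both thresholds and dotted lines mark a difference of 1. Slc5a12 (8.36) and Slc5a8 (-7.28) lie at opposite ends of the PTS1 minus PTS2 panel, and the 4 filled points for PTS2 minus PTS3 are all above 0.

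Slc16a7 (ENSMUSG00000020102), the high-affinity carrier, was nearly absent where the other genes were high. Its proximal means were 0.47 ± 0.257 TPM in PTS1, 0.182 TPM in PTS2 and 0.00167 TPM in PTS3. The highest levels were in DCT, at 752, 634 and 747 TPM, and MTAL, at 450, 592 and 657 TPM. CTAL mice had 455, 340, 408, 288 and 428 TPM. From there the level stepped down through CNT (258 ± 13.7 TPM, n = 3), CCD (185 ± 27.4 TPM, n = 5) and OMCD (81.1 ± 14.9 TPM, n = 4) to IMCD (2 ± 1.72 TPM, n = 3). Neighbours in order of level did not pass from DCT to MTAL (0.34, adjusted p = 0.859), from MTAL to CTAL (0.56, adjusted p = 0.287), from CTAL to CNT (0.56, adjusted p = 0.197) or from CNT to CCD (0.49, adjusted p = 0.817). DCT exceeded CNT by 1.46 (SE 0.29, adjusted p = 0.000237) and CCD exceeded OMCD by 1.18 (SE 0.24, adjusted p = 0.000247). OMCD exceeded IMCD by 4.95 (SE 0.27, adjusted p = 1.33e-19). In the thin limbs Slc16a7 was at 143, 82.1 and 78.4 TPM in DTL2, against 7.27, 8.83 and 15.3 TPM in DTL1 and 0.59, 1.39 and 2.20 TPM in DTL3. ATL mice had 9.94, 29.5, 11 and 12.9 TPM. DTL2 thus stood above the other thin limb groups with no overlap, with DTL1 minus DTL2 at -3.16 (adjusted p = 8.40e-12) and DTL2 minus DTL3 at 5.42 (adjusted p = 3.11e-19). The part of thick limb RNA, rich in Slc16a7, in the thin limb levels was not tested.

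The share of Slc16a7 in the sum of Slc16a1 and Slc16a7 was 0.531% to 1.54% in PTS1 mice, 79.2% to 80.8% in DTL2 mice, 98.5% or more in each mouse of MTAL, CTAL, DCT, CNT, CCD and OMCD, and 5.20% to 15% in IMCD mice. Slc16a1 in IMCD was at 6.76, 24.9 and 22.4 TPM, against 0.06 to 1.05 TPM in OMCD. IMCD was higher, with an OMCD minus IMCD difference of -3.55 (SE 0.39, adjusted p = 4.03e-10). Proximal transcripts (12 genes) summed to 4.39 to 9.31 TPM in IMCD, against at least 38907 TPM in each PTS1 mouse. Markers of endothelium, a cell type that can adhere to thin limbs, summed to 3250 to 4386 TPM in DTL1 and 4404 to 4423 TPM in glomerulus, where Slc16a1 was at 0.25 to 1.93 TPM and 1 to 1.05 TPM. In DTL2 mice 1 to 3 they summed to 1224, 2252 and 1479 TPM beside 36.5, 19.5 and 20.6 TPM of Slc16a1. There the mouse with the least endothelial RNA had the most Slc16a1. In IMCD mice 1 to 3 these markers summed to 35.5, 231 and 329 TPM, and the mouse with the least endothelial RNA had the least Slc16a1. Red cell transcripts, from cells that also use this carrier, summed to 194 to 555 TPM in glomerulus. In CTAL mice 1 to 5 they summed to 29.7, 4.22, 78.4, 0.145 and 27.0 TPM beside 5.89, 4, 6.13, 4.13 and 5.17 TPM of Slc16a1, so the 3 mice with the most red cell RNA had the most Slc16a1. In MTAL they summed to at most 0.115 TPM beside 3.98 to 6.95 TPM of Slc16a1. Leukocyte markers (8 genes) summed to 341 to 610 TPM in MTAL and 465 to 1004 TPM in CTAL. They summed to 11.7 to 390 TPM in ATL, 230.5 to 377 TPM in DCT and 522 to 773 TPM in glomerulus. No mouse of those groups exceeded 1.91 TPM of Slc16a1. CTAL mouse 3 had the most of both and CTAL mouse 2 the least. In MTAL the mouse with the most leukocyte RNA had the least Slc16a1. The part of these cell types in the Slc16a1 levels was not tested.

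Beyond PTS3, 12 pairs of neighbouring groups gave 33 calls among the 8 genes. From PTS3 to DTL1, 5 of 8 differed (65.5% of all genes), and from PTS3 to DTL2, 7 of 8 (40% of all genes; 4 higher in PTS3, 3.85%, and 3 in DTL2, 36.2%). Slc13a1, Slc13a2 and Slc5a8 were higher in PTS3 than in DTL1 (3.75% of all genes), by 2.59, 3.49 and 3.84. Slc13a3 and Slc16a7 were higher in DTL1 (61.8%). DTL1 and DTL2 differed in 6 of 8 genes (28.2%). Slc13a1, Slc13a2, Slc13a3 and Slc5a8 were higher in DTL1 (25.2%) and Slc16a1 and Slc16a7 in DTL2 (2.99%), with DTL1 minus DTL2 differences of -3.58 and -3.16. The DTL1 to DTL2 difference of Slc13a3, 1.29 (adjusted p = 0.0109), rested on DTL1 mouse 5, without which it was 0.56 (adjusted p = 0.259). Without DTL2 mouse 1 it was 1.13 (adjusted p = 0.0515). Quantile normalization ended the DTL1 to DTL2 calls of Slc13a1 (0.64), Slc13a3 (0.67) and Slc5a8 (0.84), and a pseudocount of 5 brought the same 3 differences to 0.87, 0.87 and 0.94, under the size threshold. With a pseudocount of 0.1 the Slc13a3 difference was 1.51 and missed the p threshold.

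The DTL1 levels of the 6 sodium-coupled and sulfate carriers were 0.274% to 6.60% of their highest proximal mean, with a median of 3.15%. The highest shares rested on DTL1 mouse 5, with 16.8 TPM of Slc13a2 against 4.86 and 4.14 TPM in mice 1 and 3, and with the high Slc13a3 value given above. Without that mouse the share was 3.27% rather than 6.26% for Slc13a2, 2.82% rather than 6.60% for Slc13a3 and 2.02% rather than 1.35% for Slc26a1. Without mouse 1 it was 0.737% for Slc26a1 and 2.5% rather than 3.96% for Slc5a8. The corresponding share over 12 proximal transcripts was 0.0214% to 13%, with a median of 3.71%. The 13% was that of Cubn, the least abundant at 27.1 TPM in PTS1, and the next was 7.39%. Those transcripts summed to 2135 to 6766 TPM in DTL1 and 274 to 1043 TPM in DTL2. The part of proximal RNA in the DTL1 levels was not tested.

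In the later pairs the calls concerned mainly Slc16a1, Slc16a7 and Slc13a3. DTL2 and DTL3 differed in 2 of 8 genes (9.58% of all genes), with Slc16a1 and Slc16a7 higher in DTL2 (3.5%). DTL3 and ATL differed in 3 of 8 (14.6%): Slc13a3 (1.5) and Slc16a1 (1.77) were higher in DTL3 (11.8%) and Slc16a7 was higher in ATL (2.86%; DTL3 minus ATL -2.74). ATL and MTAL differed in 3 of 8 (28.1%), with Slc16a1 (ATL minus MTAL -2.05) and Slc16a7 (-5.19) higher in MTAL (5.43%) and Slc13a3 (1.25) higher in ATL (22.6%). ATL mice 2, 3, 4 and 6 had 0.69, 0.68, 2.24 and 5.09 TPM of Slc13a3, so the higher values were in the 2 ATL mice with the most receptor genes. Without those 2 mice its ATL minus MTAL difference was 0.55 (adjusted p = 0.478), and the other 5 calls that involve ATL were kept. CTAL and DCT differed in 1 of 8 (4.35%), Slc16a1, which was higher in CTAL (2.34%) by 2.02 (adjusted p = 8.77e-05). Slc16a7 did not overlap between CTAL and DCT mice, and its CTAL minus DCT difference of -0.90 (adjusted p = 0.0183) was under the size threshold. With median ratio rescaling it was -1.01 (adjusted p = 0.00337) and passed. DCT and CNT differed in 1 of 8 (5.22%), Slc16a7, higher in DCT (1.52%). CCD and OMCD differed in 2 of 8 (12.1%), Slc16a7 being higher in CCD (1.73%) and Slc13a3 in OMCD (10.4%). OMCD and IMCD differed in 3 of 8 (18.6%), with Slc13a3 and Slc16a7 higher in OMCD (15.2%) and Slc16a1 in IMCD (3.4%). By limma, MTAL and CTAL differed in 0 of 8 (3.15%; 1 gene at an unadjusted p under 0.05) and CNT and CCD in 0 of 8 (1.12%; 0 genes at an unadjusted p under 0.05).

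Slc13a3 was at 3.03 ± 1.07 TPM in OMCD (n = 4), above 1.06 ± 0.976 TPM in CCD (n = 5) and 0.59 ± 0.248 TPM in IMCD (n = 3). Its CCD minus OMCD difference of -1.04 (adjusted p = 0.0204) fell below the size threshold without CCD mouse 1 (-0.91), CCD mouse 2 (-0.95) or OMCD mouse 1 (-0.87). OMCD mouse 1 had 4.59 TPM of Slc13a3, against 2.23 to 2.78 TPM in the other OMCD mice. It also had the most receptor genes (253 against 76 to 128) and leukocyte marker RNA (513 against 113 to 172 TPM), whose part was not tested. The ATL to MTAL difference of Slc13a3 was 0.86 (adjusted p = 0.0745) without ATL mouse 6. With a block by mouse number it was 0.76 (adjusted p = 0.133). The call of Slc26a1 as higher in PTS3 than in DTL2, at 1.01 (adjusted p = 0.0243), was lost without PTS3 mouse 2 (0.99) or 3 (0.79) and without DTL2 mouse 1 (0.85) or 3 (0.86). Each of these rests on levels under 6 TPM. Quantile normalization also ended the calls of Slc13a3 between OMCD and IMCD (0.79), CCD and OMCD (-0.21), and ATL and MTAL (0.40), and of Slc16a1 between DTL3 and ATL (0.95). A pseudocount of 5 brought the Slc13a3 differences to 0.52, -0.41 and 0.43 for those 3 pairs, 0.76 for DTL3 to ATL and -0.87 for PTS3 to DTL2. It brought those of Slc16a1 to 0.73 for DTL3 to ATL, -0.86 for ATL to MTAL and 0.83 for CTAL to DCT, and that of Slc26a1 to 0.46 for PTS3 to DTL2. These are all under the size threshold. Median ratio rescaling ended the call of Slc13a3 between CCD and OMCD (-0.92), and a pseudocount of 0.1 that of Slc26a1 between PTS3 and DTL2 (1.44) by its p.

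Related genes were grouped in lists by function, and each list was described by its counts of limma calls. The percentage beside a count is the share of all genes called that way, and medians are for PTS1 minus PTS2 and then PTS2 minus PTS3. Of 12 further genes of the SLC13 and SLC26 families, 11 were tested. From PTS1 to PTS2, 1 was higher in PTS1 (4.46% of all genes) and 0 in PTS2 (5.1%; 0 at an unadjusted p under 0.05). From PTS2 to PTS3, 2 were higher in PTS2 (3.94%) and 0 in PTS3 (0.755%; 0 unadjusted). The median differences were 0.09 and 0.51, against 0.15 and 0 over all genes. Slc26a6, a luminal anion exchanger that carries oxalate, was at 28.3 ± 5.29 TPM in PTS1, 25.2 ± 4.11 TPM in PTS2 and 5.91 ± 5.50 TPM in PTS3, and PTS2 exceeded PTS3 by 2.46 (SE 0.40, adjusted p = 9.16e-06). Slc26a4, the pendrin exchanger of intercalated cells, was at 2475 ± 322 TPM in CNT and 1769 ± 364 TPM in CCD and below 2 TPM in each proximal mean. Slc26a7 (69.8 ± 35.9 TPM) and the sulfate carrier Slc26a2 (71.7 ± 13.1 TPM) had their highest means in OMCD. Slc26a2 was at 8.04 ± 1.44 TPM in PTS1, far under Slc13a1 and Slc26a1 there. Slc26a10 and Slc26a11 had their highest means in glomerulus, at 54.1 ± 4.20 and 22.9 ± 1.98 TPM.

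Of 15 SLC16 relatives and partner glycoproteins, 3 were higher in PTS1 (4.46% of all genes) and 5 in PTS2 (5.1%). From PTS2 to PTS3, 5 were higher in PTS2 (3.94%) and 0 in PTS3 (0.755%; 1 at an unadjusted p under 0.05). The list's medians were -0.10 and 0.38, against 0.15 and 0 over all genes. Slc16a9 was at 41.9 ± 5.99 TPM in PTS1 against 188 ± 31.3 TPM in PTS2 (PTS1 minus PTS2 -2.13, adjusted p = 1.46e-08). Slc16a5, like Slc16a7, was near 0 in the proximal tubule (at most 0.315 TPM) and was at 325 ± 54.2 TPM in CTAL, 258 ± 39.4 TPM in CNT and 215 ± 24.1 TPM in DCT. Bsg ran from 496 ± 121 TPM in ATL to 1410 ± 7.93 TPM in CNT, so it was abundant wherever Slc16a1 or Slc16a7 was found. Emb was at 0.283 to 1.23 TPM over the 3 proximal means, 183 ± 3.95 TPM in CTAL, 224 ± 24.5 TPM in CNT and 174 ± 19.8 TPM in CCD. It was at 4.47 ± 1.06 TPM in DTL2, where Slc16a7 was at 101 ± 36.2 TPM. Nptn, another glycoprotein of that family, was highest in glomerulus (499 ± 38.7 TPM).

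A list of 12 genes was drawn up around sulfate formation and activation, and it also holds genes of neighbouring steps in sulfur metabolism. Of these 12, 2 were higher in PTS1 (Bpnt1 and Ethe1; 4.46% of all genes) and 4 in PTS2 (among them Papss1, Cdo1 and Csad; 5.1%). From PTS2 to PTS3, 2 were higher in PTS2 (3.94%) and 0 in PTS3 (0.755%; 0 unadjusted). The medians were -0.73 and 0.39, against 0.15 and 0 over all genes. Cdo1 and Csad, which oxidize cysteine and turn the product toward taurine, were at 2.29 ± 0.799 and 109 ± 10.9 TPM in PTS1 and at 402 ± 76.8 and 1181 ± 92.1 TPM in PTS2. The differences, PTS1 minus PTS2, were -6.99 (adjusted p = 1.52e-25) for Cdo1 and -3.43 (adjusted p = 1.08e-23) for Csad. Ethe1, which acts in sulfide oxidation, went the other way, at 269 ± 40.9 TPM in PTS1 and 116 ± 14.8 TPM in PTS2. Bpnt1, a phosphatase that removes a by-product of sulfation, was at 488 ± 55.1 TPM in PTS1 and 201 ± 8.56 TPM in PTS2. Papss1, which makes the active sulfate donor, was at 23.1 ± 2.31 TPM in PTS1, where the sulfate carriers had their highest sum, and at 454 ± 6.49 TPM in DCT. Sqor, which oxidizes sulfide, was at 241 ± 21.4 TPM in PTS1 and 310 ± 68.4 TPM in IMCD.

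Of 18 genes of citrate and dicarboxylate metabolism, 2 were higher in PTS1 (4.46% of all genes) and 2 in PTS2 (5.1%), with a list median of 0.31 against 0.15. From PTS2 to PTS3, 8 were higher in PTS2 (3.94%), among them Idh2 (1.12) and Sdha (1.18), and 0 in PTS3 (0.755%; 0 unadjusted). The median was 0.66 against 0. The levels of Sdha, a subunit of succinate dehydrogenase, were 881 ± 59.8, 710 ± 15.2 and 315 ± 38.9 TPM along the proximal tubule. Idh2 and Sdha were more abundant beyond it, at 2691 ± 31.2 TPM in MTAL and 1671 ± 36.4 TPM in DCT. Mdh1 was at 2666 ± 128 TPM in DTL2. Mdh1, Mdh2 and Sdhb did not pass between PTS2 and PTS3 (-0.04, 0.21 and -0.12).

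A further list of 5 genes held the dicarboxylate receptors Sucnr1 and Oxgr1, the organic anion exchangers Slc22a6 and Slc22a8, and the sodium bicarbonate carrier Slc4a4. Of these, 2 were higher in PTS1 (Slc22a8 and Slc4a4; 4.46% of all genes) and 1 in PTS2 (Slc22a6; 5.1%). From PTS2 to PTS3, 4 were higher in PTS2 (each but Oxgr1; 3.94%) and 0 in PTS3 (0.755%; 0 unadjusted). The medians were 0.08 and 3.57, the values of Oxgr1 and Slc4a4, against 0.15 and 0. Sucnr1, the succinate receptor, was at 36.1 ± 8.87 TPM in PTS1, 53.5 ± 8.93 TPM in PTS2 and 18.7 ± 5.72 TPM in PTS3 (PTS2 minus PTS3 1.51, adjusted p = 4.69e-07). Oxgr1, the receptor for alpha-ketoglutarate, lay downstream of the dicarboxylate carriers. Its mean was at most 0.152 TPM in the proximal segments and 174 ± 12.3 TPM in DCT, 332 ± 49.6 TPM in CNT, 206 ± 19.0 TPM in CCD and 67.7 ± 24.9 TPM in OMCD. Slc4a4, which acts at the basolateral side, was at 590 ± 87.5 TPM in PTS1 and 118 ± 9.39 TPM in PTS2.

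Among 12 genes of lactate, pyruvate and ketone metabolism, 1 was higher in PTS1 (4.46% of all genes) and 4 in PTS2 (5.1%). From PTS2 to PTS3, 3 were higher in PTS2 (3.94%) and 0 in PTS3 (0.755%; 1 unadjusted). The medians were -0.58 and 0.53, against 0.15 and 0. Ldhb, the lactate dehydrogenase subunit of oxidative tissue, was at 2812 ± 65.8 TPM in PTS1, 1034 ± 88.6 TPM in PTS2 and 350 ± 12.4 TPM in PTS3. It ran from 5972 ± 249 to 7618 ± 338 TPM over MTAL, CTAL, DCT, CNT and CCD, the groups where Slc16a7 was high. Ldhd, which oxidizes D-lactate, was at 205 ± 51.7 TPM in PTS1 against 1494 ± 137 TPM in PTS2 and 1079 ± 52.5 TPM in PTS3, the segments with Slc5a8. Ldha was at 2266 ± 279 TPM in DTL3 and 424 ± 35.7 TPM in CTAL. Pck1, which commits carbon to glucose synthesis, and Oxct1, which uses ketone bodies, did not pass between PTS1 and PTS2 (-0.88 and -0.39, adjusted p = 0.267 and 0.123). For Mpc2, a subunit of the mitochondrial pyruvate carrier, PTS1 minus PTS2 was -0.77 (adjusted p = 4.22e-09), under the size threshold.

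**Figure D4:**
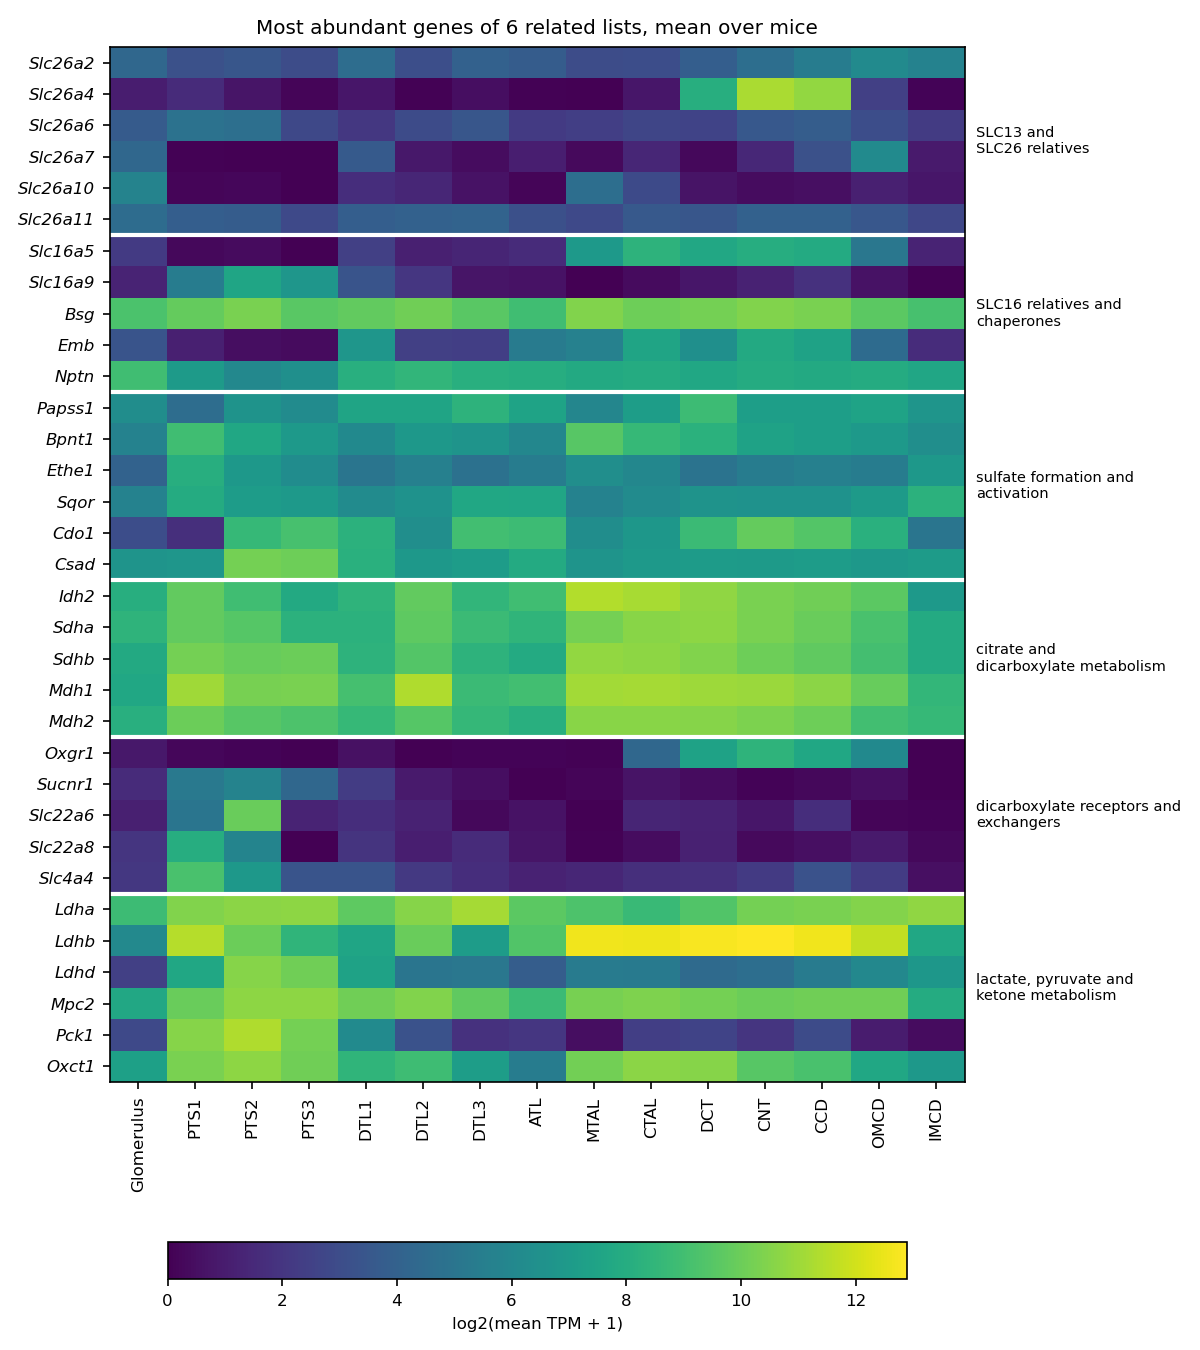
Log2 of mean TPM + 1 (colour) for 5 or 6 abundant genes of each related list (rows) in the 15 groups (columns). Slc26a4 and Oxgr1 are bright from DCT to CCD, Slc22a6 in PTS2, Cdo1 is dark in PTS1, and Bsg stays between 496 and 1410 TPM in every group.

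The genes whose pattern over the 15 group means was most like each carrier were found among 12135 genes, by Pearson r, as a description. For Slc13a1 they were Lrrc19 (0.990), Slc5a11 (0.989) and Hsd3b2 (0.989), and for Slc26a1 Dleu7 (0.984), Ttr (0.980) and Acmsd (0.980). Slc13a2 was most like Slc22a2 (0.995), Serpinf2 (0.990) and Treh (0.990). Slc13a3 had no such close neighbours: Dpys (0.941), Ctxn3 (0.920) and Cyp2e1 (0.856) came nearest. Slc5a12 was most like F5 (0.996), Ugt2b34 (0.995) and Prodh2 (0.994), and Slc5a8 was most like Slc5a10 (0.996), Apoa4 (0.995) and Cyp2a4 (0.995). Slc16a1, high in unrelated segments, reached only 0.742 with Cela1 and Tln2 and 0.733 with Odc1. Slc16a7 was most like Rapsn (0.983), Impa2 (0.962) and Tmem38a (0.943).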

How the data were processed

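The authors deposited TPM per gene and sample, and the submitters' processing notes name STAR 2.5.4a and RSEM 1.3.0 without saying which step each did. The genome build and annotation behind the TPM are not given in the sources used here. TPM hold no read depth, so precision is judged from the spread over mice. Columns were matched to samples by name. The name of 1 PTS2 column carries mouse number 2 and piece b, a combination that no PTS2 sample title has. The PTS2 sample titled as mouse 2, piece a, matched no column. The column was used as a PTS2 mouse printed after mouse 1, and kept apart from number 2 in the block. A further 3 single-cell samples were not analysed here.

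Pieces sharing a mouse number and segment were averaged as log2(TPM + 1), giving 53 mice. The filter kept 33793 genes, those reaching 1 TPM in 3 or more mice. limma 3.58.1 in R 4.3.3 (eBayes with trend, 15 groups sharing the spread) gave the F-test, two-sided contrasts and an intersection-union test, the largest one-sided p against the other groups. Benjamini-Hochberg adjustment ran over all genes. The fits were tested on simulated data. Named genes were the 8 carriers, up to 6 genes per list with the highest mean in any group, and the 3 most similar genes to each carrier with a mean of at least 10 TPM, leaving out predicted, mitochondrial and ribosomal protein names. Slc22a6, Slc7a13, Kap, Napsa, Cubn, Slc34a1 and Slc5a2 are segment or proximal markers, shown with mouse values chosen after they were seen. Some genes that this rule names are not reported here. The carriers and lists were chosen with earlier results of these data known. The labels do not say that a mouse number is shared between segments, and most same-numbered pairs had deviations with a correlation under 0.1, so segments were compared unpaired. Alternatives were other pseudocounts, filters and scalings, pieces averaged before the log or kept as replicates, a block, medians, and each mouse left out. Fits without glomerulus and DTL1, and without ATL mice 4 and 6, were added after seeing the data. Tables and figures were made in Python 3.11.15 with pandas 2.3.3, matplotlib 3.10.9 and numpy 2.4.6.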

Additional observations from a re-analysis of the deposited data

Results flagged for a closer look

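Of 40 combinations of a carrier and a group of 4 or 5 mice, the 22 in which a mouse reached 1 TPM were tested. Of these, 2 had a mouse far from the others. Slc5a8 in ATL entered only through the mouse that was flagged. The rate of about 1 in 20 by chance therefore does not hold for this set, and the count is a description. Slc13a2 in PTS2 mouse 1 was 99.0 TPM (98.98), against 143.24 to 156.34 TPM in the other 4 mice. Slc5a8 in ATL mouse 4 was 1.67 TPM, against 0 to 0.17 TPM in the other ATL mice. In that mouse Slc13a1 was at 2.9 TPM (0 to 0.36 TPM in the others), the 12 proximal transcripts summed to 116 TPM (13.9 to 64.05 TPM) and the 8 leukocyte markers to 390 TPM (11.7 to 21.4 TPM), and their part in the value was not tested.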

How the results depend on the processing

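Of 55 single-gene results, 42 kept their direction and call under each alternative in which they could be fitted. In 1 (Slc26a1, PTS1 to PTS2) a call was gained, 12 lost theirs under some setting, and 0 reversed. Beyond PTS3 the 55 hold only the 33 calls made with all mice. Calls gained outside the 55 are not in that count and are given below. No call among the 20 carrier results of PTS1 to PTS3 named here was lost. Leaving out each of 53 mice gave 31 to 34 calls beyond PTS3 (33 with all mice), 5 to 6 between PTS1 and PTS2, and the same 8, 2, 4 and 7 elsewhere. A pseudocount of 5 left 21 of the 33 calls beyond PTS3, since it shrinks differences of low genes, and a pseudocount of 0.1 gave 39 (31 kept, 8 gained), with 5 instead of 4 between PTS2 and PTS3 and 8 instead of 7 between PTS1 and PTS3. With median ratio rescaling and with quantile normalization, 4 carriers instead of 2 were higher in 1 group than in every other, Slc26a1 and Slc16a1 in PTS1 being added; the cause was not tested. Beyond PTS3 median ratio rescaling kept 32 of the 33 calls and gained 2 (34 in all), Slc26a1 from PTS3 to DTL1 and Slc16a7 from CTAL to DCT. Quantile normalization kept 26 of the 33 calls and gained 2 (28 in all), Slc26a1 from PTS3 to DTL1 and Slc13a1 from CCD to OMCD. Averaging pieces before the log kept 33 and gained 1 (34 in all), Slc5a8 from DTL2 to DTL3. The replicate block by mouse number gave 8, 2, 5, 4, 7 and 32 calls. It lost 1, Slc13a3 between ATL and MTAL (0.76, adjusted p = 0.133). The median correlation of deviations was 0.000185 over 290 same-numbered pairs (19 over 0.1, 6.55%) and 0.000366 over 1016 other pairs (32, 3.15%), so the numbers were not taken to pair mice. Rescaling moved the median gene from -1.33 to -0.93 (median ratio) and -0.19 (quantile) for PTS3 minus DTL1. Without glomerulus and DTL1, each of the 44 single-gene results that could still be fitted kept its call. Differences between the remaining groups are the same in that fit, so only the spread and the adjustment could change a call. Without ATL mice 4 and 6, 54 of 55 did, and 32 calls beyond PTS3 were kept. Low levels in groups with many receptor genes, and unknown depth, limit calls of low genes.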
